A study of Caenorhabditis elegans with 12 samples.

Results

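The pud genes of Caenorhabditis elegans are a family of 6 genes: pud-1.1, pud-1.2, pud-2.1, pud-2.2, pud-3 and pud-4. They were taken by symbol from the deposited table, which held 23515 genes, and all 6 were found there. The family was selected on measured values, because pud-2.1 and pud-2.2 had higher values in the fhod-1 mutant, and in part in the unc-120 mutant, than in wild type in these same libraries. Differences of the pud genes between the groups are therefore given as a description, and no test of them is used as support.

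The name pud stands for protein upregulated in daf-2. DAF-2 is the insulin and IGF-1 receptor of the worm, and its signal holds the FOXO transcription factor DAF-16 in check. When the receptor is weakened, DAF-16 changes the levels of many genes of stress resistance, defence and metabolism. PUD-1 and PUD-2 are small proteins that were found in larger amounts in daf-2 mutants, and they form a heterodimer with each other. Their biochemical role is not settled.

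Polyadenylated RNA was taken from whole larvae of the L3 stage, hatched from embryos plated on bacteria and grown at 15 °C, and was sequenced from stranded libraries. The groups were fhod-1(tm2363), strain XA8001, with a mutation in a formin, an actin-assembling protein; unc-120(st364), strain RW364, with a mutation in the worm serum response factor, a muscle transcription factor; and the wild-type strain N2. Each group had 4 libraries, 12 in all, and each mutant was represented by 1 strain and 1 allele. No label states that the libraries of a group came from separate cultures, so a p-value measures the spread between these libraries, which may be technical. In whole larvae, fewer cells of a type and less RNA per cell cannot be told apart.

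One label field attached the strain names to the mutants the other way round, and the groups follow the description, title, strain and genotype fields. Values are in the deposited unit, a share of the library's transcripts per gene length that is proportional to TPM (called the TPM scale here). Every library summed to 638200, and 19400 to 20472 genes were above 0. The fhod-1 transcript had 4.79 ± 1.48 in fhod-1(tm2363) and 4.47 ± 1.72 in unc-120(st364), against 5.63 ± 1.09 in wild type on the TPM scale (mean ± SD, n = 4), so its level did not tell that mutant from the others. The unc-120 transcript had 18.8 ± 1.30 in fhod-1(tm2363) and 33.5 ± 8.04 in unc-120(st364), against 13.5 ± 2.81 in wild type.

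The 6 genes lie together on chromosome V of WBcel235, between positions 2322038 and 2330930, a stretch of 8893 bases that holds no other gene of the deposited table. From left to right they are pud-1.2 (WBGene00021236, 2322038 to 2322566, minus strand), pud-2.2 (WBGene00017500, 2323014 to 2323524, plus), pud-3 (WBGene00017501, 2324510 to 2326827, minus), pud-4 (WBGene00017498, 2326678 to 2327262, plus), pud-2.1 (WBGene00017490, 2329444 to 2329954, minus) and pud-1.1 (WBGene00017499, 2330429 to 2330930, plus). The outer genes thus form mirrored pairs, each with a pud-1 and a pud-2 copy on opposite strands. In both pairs the copies point away from each other, with 474 bases between their start codons. The inner pair, pud-3 and pud-4, also points outward.

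The copies have matching gene models in Ensembl release 115. Both pud-1 copies have 2 coding exons, an intron of 46 bases and 151 codons without the stop codon. Both pud-2 copies also have 2 coding exons and an intron of 46 bases, and have 154 codons. The gene pud-3 has 1 coding exon and 172 codons, and pud-4 has 162 or 148 codons according to the transcript. The copies are near-identical paralogs, and how reads that match both were divided is not given in the sources used here, so each copy's own value is uncertain and the sum of the copies is given beside it. Positions of pud-3 are uncertain too: in the deposited table its span overlaps pud-4 by 150 bases, while release 115 and RefSeq place it at 2324634 to 2325152 with no overlap. Release 115 gives WBGene00017490 the symbol pud-2.2, whereas the deposited table and RefSeq call it pud-2.1, and the deposited symbols are used here.

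The pud-2 copies were the most abundant members. In replicates 1 to 4, pud-2.1 had 86.1, 104, 67.2 and 94.3 in fhod-1(tm2363) and 60.6, 55.0, 38.7 and 50.4 in unc-120(st364), against 38.5, 24.3, 13.6 and 25.7 in wild type on the TPM scale. All 4 fhod-1(tm2363) libraries lay above all the others, and all 4 unc-120(st364) libraries lay above wild type, the last by a narrow margin. The ratio of group means was 3.45 for fhod-1(tm2363) over wild type, 2.01 for unc-120(st364) over wild type and 1.72 for fhod-1(tm2363) over unc-120(st364).

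Its copy pud-2.2 had nearly the same levels: 87.5, 103, 67.9 and 92.0 in fhod-1(tm2363) and 57.4, 50.2, 34.9 and 51.4 in unc-120(st364), against 38.7, 24.2, 15.96 and 27.4 in wild type. Here too the fhod-1(tm2363) libraries lay above all the others, but unc-120(st364) and wild type overlapped, through unc-120(st364) replicate 3 and wild type replicate 1. The ratios of group means were 3.30, 1.83 and 1.81 for the same comparisons. Within a library, pud-2.1 over pud-2.2 lay between 0.854 and 1.11.

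The pud-1 copies had lower levels and the same order of groups. In replicates 1 to 4, pud-1.1 had 52.1, 53.5, 43.9 and 52.8 in fhod-1(tm2363) and 35.2, 33.6, 18.7 and 27.3 in unc-120(st364), against 23.3, 16.11, 9.74 and 17.97 in wild type. Its copy pud-1.2 had 48.8, 51.6, 42.4 and 50.6 in fhod-1(tm2363) and 35.1, 34.7, 18.1 and 25.01 in unc-120(st364), against 22.1, 17.1, 9.58 and 19.7 in wild type. For both, the fhod-1(tm2363) libraries lay above all the others, and unc-120(st364) overlapped wild type. The means of fhod-1(tm2363) were 3.02 times (pud-1.1) and 2.83 times (pud-1.2) those of wild type, and the means of unc-120(st364) were 1.71 and 1.65 times those of wild type. Within a library, pud-1.1 over pud-1.2 lay between 0.912 and 1.09.

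The genes pud-3 and pud-4, whose functions are not known, had far lower levels than the copies. In replicates 1 to 4, pud-3 had 0.665, 0.627, 0.276 and 0.534 in fhod-1(tm2363) and 0.654, 0.627, 0.204 and 0.431 in unc-120(st364), against 0.406, 0.304, 0.105 and 0.151 in wild type. All 3 groups of pud-3 overlapped, with ratios of means of 2.18 for fhod-1(tm2363) over wild type, 1.98 for unc-120(st364) over wild type and 1.098 for fhod-1(tm2363) over unc-120(st364). In the same order of libraries, pud-4 had 0.971, 1.89, 0.700 and 1.47 in fhod-1(tm2363) and 0.928, 2.00, 0.403 and 0.811 in unc-120(st364), against 0.946, 0.402, 0.104 and 0.322 in wild type. Its groups overlapped as well, with ratios of means of 2.84, 2.33 and 1.22 for these comparisons. From the size of 1 read estimated from the low values of each library, pud-4 rested on about 15.6 to 34.4 reads in fhod-1(tm2363) and 7.86 to 40.3 in unc-120(st364), against 1.97 to 19.6 in wild type.

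**Figure D1:**
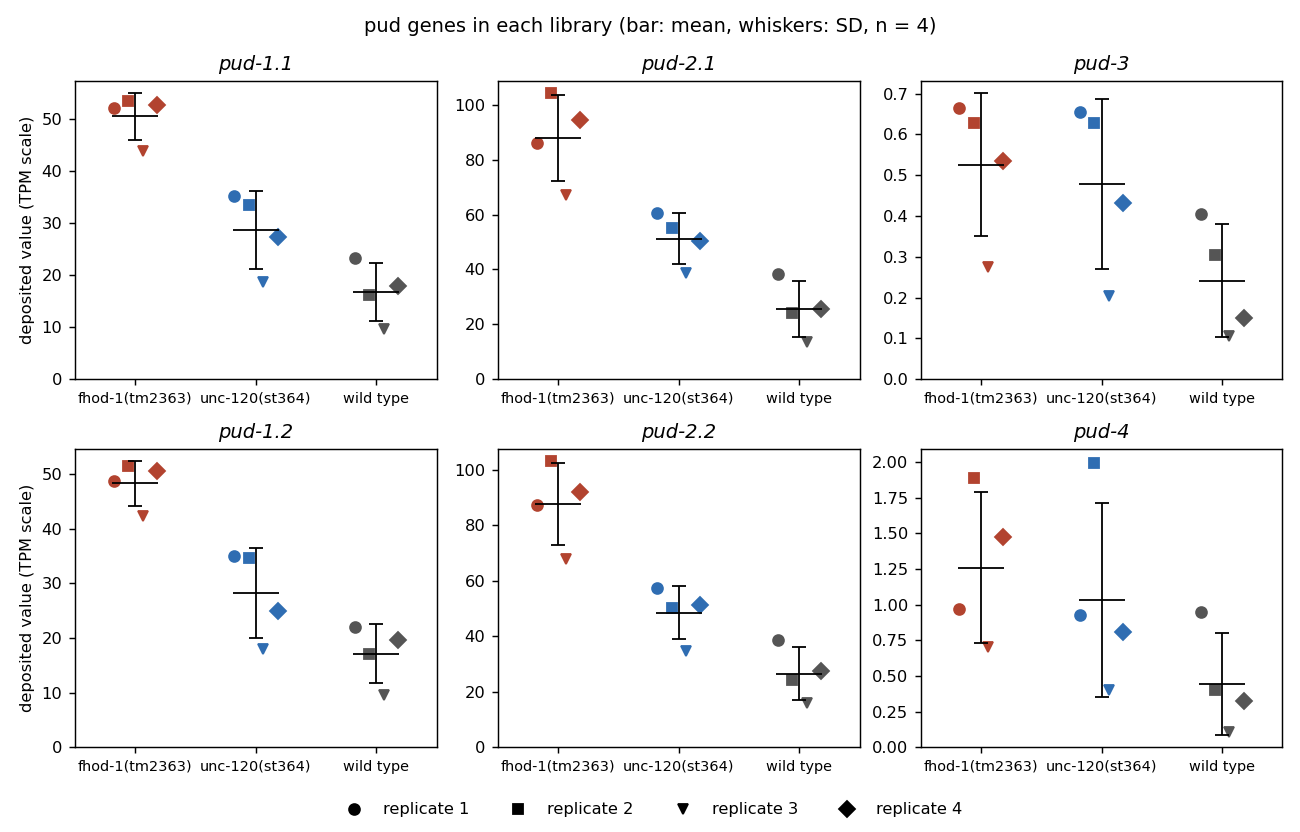
Value of each pud gene in every library on the TPM scale (y axis, from 0, with its own range in each panel) for fhod-1(tm2363), unc-120(st364) and wild type. Symbols mark replicates 1 to 4, the bar is the mean and the whiskers are the SD of 4 libraries. For the pud-1 and pud-2 copies the fhod-1(tm2363) libraries sit above the other groups, all groups overlap for pud-3 and pud-4, and replicate 3 is lowest in every group.

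Ranked from the highest among all 23515 genes, pud-2.1 held places 841 to 4559 over the 12 libraries and pud-1.1 held 1547 to 5650. The rank of pud-3 was 13138 to 16738 and that of pud-4 was 10101 to 16758. The pud-1 and pud-2 copies together made up 98.5% to 99.6% of the summed value of the family in each library. This family sum was 222 to 315 in fhod-1(tm2363) and 111 to 190 in unc-120(st364), against 49.1 to 124 in wild type on the TPM scale, so the last pair of groups overlapped.

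The sums of the copies depend less than each copy on how shared reads were divided, but reads that were discarded or counted for both copies would still change them. The summed pud-1 copies had 98.9 ± 8.59 in fhod-1(tm2363) and 56.9 ± 15.7 in unc-120(st364), against 33.9 ± 10.9 in wild type (mean ± SD on the TPM scale, n = 4). The summed pud-2 copies had 175.6 ± 30.3 in fhod-1(tm2363) and 99.6 ± 18.7 in unc-120(st364), against 52.1 ± 19.6 in wild type. For both sums the fhod-1(tm2363) libraries lay above all the others, and unc-120(st364) overlapped wild type.

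On the log2(value + 1) scale the summed pud-1 copies differed by 1.58 (SE 0.26) between fhod-1(tm2363) and wild type, by 0.75 (SE 0.33) between unc-120(st364) and wild type, and by 0.83 (SE 0.22) between fhod-1(tm2363) and unc-120(st364). The corresponding differences of the summed pud-2 copies were 1.80 (SE 0.31), 0.98 (SE 0.31) and 0.81 (SE 0.19). Each pair of these comparisons shares the libraries of 1 group, so they are not independent of each other.

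The balance between the copies of the heterodimer partners varied less than their levels. Summed pud-2 over summed pud-1 copies was 1.77 ± 0.17 in fhod-1(tm2363) and 1.79 ± 0.22 in unc-120(st364), against 1.53 ± 0.13 in wild type (SD, n = 4). Over the 12 libraries this ratio lay between 1.41 and 2.00, and the groups overlapped. The fold of the pud-2 copies against wild type was larger than that of the pud-1 copies in both mutants. Both sums come from the same libraries, so the standard error of either fold does not measure this gap, and it was not tested.

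**Figure D2:**
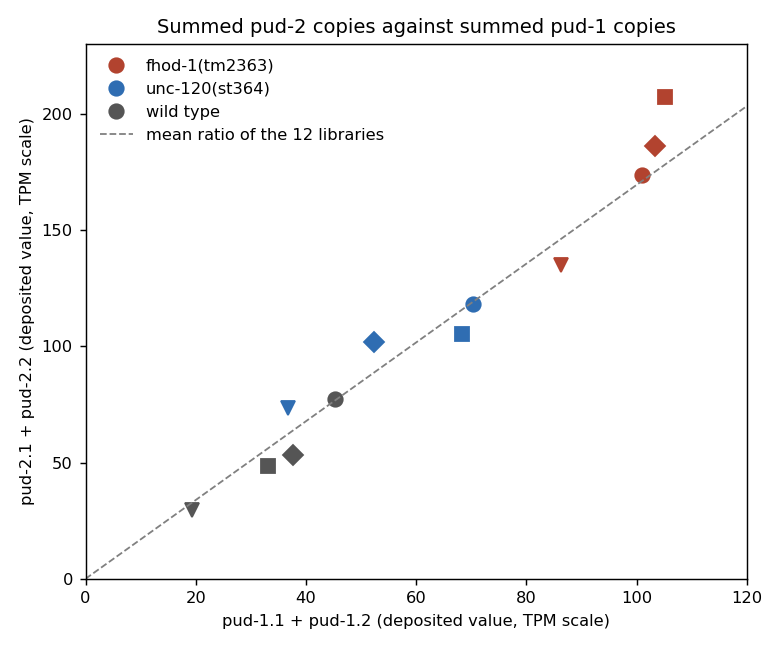
Summed pud-2 copies (y axis) against summed pud-1 copies (x axis) in each of the 12 libraries, both on the TPM scale, with symbols for replicates 1 to 4 (circle, square, triangle, diamond). The dashed line is the mean ratio of 1.69, the libraries lie along it, and the fhod-1(tm2363) libraries stand at its upper end.

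The pud genes also moved together among libraries of the same group. Replicate 3 was the lowest library of its group in 18 of the 18 combinations of gene and group. After each group's mean was subtracted from the log2 values, the summed pud-1 and pud-2 copies correlated with r = 0.93 over the 12 libraries. The other pairs among the pud-1 sum, the pud-2 sum, pud-3 and pud-4 had r of 0.76 to 0.80. These are descriptions only, since all genes of a library share its preparation and depth. The replicate numbers are not stated to mark a shared batch, and any common source of the low replicate 3 values was not tested.

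The values were fitted with limma on log2(value + 1) together with all genes that reached a value of 1 in 4 or more of the 12 libraries. This left 12831 genes and 4 of the 6 pud genes, since pud-3 and pud-4 did not reach the minimum. Genes with a Benjamini-Hochberg adjusted p under 0.05 count as called. In fhod-1(tm2363) against wild type 4 of the 4 fitted pud genes were called, beside 5.23% of all genes. In unc-120(st364) against wild type 0 of 4 were called, beside 1.2% of all genes, and in fhod-1(tm2363) against unc-120(st364) 0 of 4, beside 1.97%. Over the alternatives tried these last counts were 0 to 3 and 0 to 4. The family had been chosen on the first contrast and in part on the second, and the last shares its libraries with both. The 4 genes are moreover near-identical pairs that share reads, so nothing is read from these counts.

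The fitted log2 fold changes in fhod-1(tm2363) against wild type were 1.81 (SE 0.25) for pud-2.1, 1.74 (SE 0.23) for pud-2.2, 1.59 (SE 0.23) for pud-1.1 and 1.50 (SE 0.24) for pud-1.2. In unc-120(st364) against wild type they were 1.04, 0.89, 0.76 and 0.70 for the same genes, with the same standard errors, as the fit uses 1 spread per gene. Between fhod-1(tm2363) and unc-120(st364) they were 0.77, 0.85, 0.83 and 0.80. In a fit of every gene above 0, pud-3 had log2 fold changes of 0.30 in fhod-1(tm2363) and 0.25 in unc-120(st364) against wild type (SE 0.12), and pud-4 had 0.65 and 0.47 (SE 0.24). At such low values the added 1 makes these fold changes smaller than the ratios of means.

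Genes of the insulin pathway and of its output were examined next, because the pud genes are named for that pathway. The lists were drawn up with earlier results of these data known, so their counts are descriptions. Of 23 genes of insulin signalling, from insulin-like peptides to DAF-16 and its partners, 22 were fitted. In fhod-1(tm2363) against wild type 1 of the 22 was called (4.55%), beside 5.23% of all genes, so nothing is read from this count. The gene was ins-1, which encodes an insulin-like peptide. Its log2 fold change of 0.77 had an SE of 0.18 and a limma adjusted p of 0.0279. It was not called in 6 of the 12 leave-one-out fits, with a limma adjusted p of up to 0.114 without fhod-1(tm2363) replicate 2. None of the 22 was called in limma in unc-120(st364) against wild type (0 at an unadjusted p under 0.05) or in fhod-1(tm2363) against unc-120(st364) (1 at an unadjusted p under 0.05). These comparisons called 1.2% and 1.97% of all genes. The receptor gene daf-2 had log2 fold changes of 0.21 in fhod-1(tm2363) and 0.07 in unc-120(st364) against wild type (SE 0.21), and daf-16 had 0.08 and -0.03 (SE 0.25). The median of the 22 genes was 0.19 in fhod-1(tm2363), where that of all fitted genes was 0.07.

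Genes known to be raised by DAF-16 formed a list of 27, of which 26 were fitted. This list and that of genes lowered by DAF-16 were not chosen independently of these data. Their counts beside the share of all genes are therefore descriptions, not tests of the lists. In fhod-1(tm2363) against wild type 9 were higher and 0 lower, while 3.86% of all genes were called higher. These were lys-7, dod-3, sodh-1, thn-2, tts-1, ctl-1, cyp-34A9, ftn-1 and hil-1. The median log2 fold change of the 26 was 0.46, and that of all fitted genes was 0.07. The count fell to 5 without wild type replicate 1, 2 or 3, or without fhod-1(tm2363) replicate 2, and the first 5 genes named were called in all 12 fits that left out 1 library. Of the others, ctl-1 was not called in 10 of these 12 fits, cyp-34A9 in 5, and ftn-1 and hil-1 in 6 each. In unc-120(st364) against wild type 0 of the 26 were called in limma, beside 1.2% of all genes. Of the 26, 7 had an unadjusted p under 0.05, and the median was 0.18 beside 0.02 for all genes. Between fhod-1(tm2363) and unc-120(st364) 4 were higher, ctl-1, dod-3, lys-7 and thn-2, while 1.51% of all genes were called higher. Of these ctl-1 was not called in 7 of the 12 leave-one-out fits, with a limma adjusted p of up to 0.135 without fhod-1(tm2363) replicate 2.

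The lysozyme gene lys-7, a defence gene of the intestine, had 97.4, 121, 101.3 and 120.1 in fhod-1(tm2363) and 27.7, 43.8, 42.6 and 59.1 in unc-120(st364), against 12.5, 28.6, 14.8 and 24.7 in wild type on the TPM scale. The fhod-1(tm2363) libraries lay above all the others, while the other groups overlapped. Against wild type it differed by 2.46 (SE 0.25, limma adjusted p = 5.34e-05) on the log2 scale, and against unc-120(st364) by 1.37 (limma adjusted p = 0.00877). In unc-120(st364) against wild type it was 1.09 and was not called (limma adjusted p = 0.0554).

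The gene dod-3, named for acting downstream of DAF-16, had 16.06, 31.1, 20.03 and 20.04 in fhod-1(tm2363) and 7.13, 8.80, 7.42 and 8.35 in unc-120(st364), against 7.84, 6.31, 3.81 and 4.53 in wild type. The fhod-1(tm2363) libraries again stood apart from both other groups. Against wild type it differed by 1.78 (SE 0.21, limma adjusted p = 1.80e-04) on the log2 scale, and against unc-120(st364) by 1.32 (limma adjusted p = 0.00275).

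The other list members called in every leave-one-out fit were sodh-1, thn-2 and tts-1. The alcohol dehydrogenase gene sodh-1 had 69.5 ± 18.1 in fhod-1(tm2363) and 41.2 ± 9.10 in unc-120(st364), against 21.4 ± 6.07 in wild type (SD, n = 4; log2 fold change in fhod-1(tm2363) against wild type 1.67, limma adjusted p = 0.00112). The thaumatin family gene thn-2 had 5.81 ± 1.70 in fhod-1(tm2363) and 2.19 ± 0.71 in unc-120(st364), against 1.79 ± 0.41 in wild type (log2 fold change 1.26, limma adjusted p = 0.00211). The long noncoding RNA tts-1 had 696.7 ± 153 in fhod-1(tm2363) and 381 ± 108 in unc-120(st364), against 296 ± 81.8 in wild type (log2 fold change 1.24, limma adjusted p = 0.00594). Not all well-known DAF-16 targets were called: sod-3, a superoxide dismutase gene, had a log2 fold change of 0.44 (limma adjusted p = 0.0966), and mtl-1, a metallothionein gene, had 0.38 (limma adjusted p = 0.451).

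Of 14 genes known to be lowered by DAF-16, 8 were fitted, and 2 of them were lower in fhod-1(tm2363) than in wild type, while 1.37% of all genes were called lower. The number called in this comparison was 0 to 3 over the alternatives tried. The gene dod-20 had 0.33 ± 0.064 in fhod-1(tm2363) and 1.42 ± 0.17 in unc-120(st364), against 2.11 ± 0.81 in wild type on the TPM scale (SD, n = 4). Its log2 fold change in fhod-1(tm2363) was -1.19 against wild type (limma adjusted p = 2.95e-04) and -0.86 against unc-120(st364) (limma adjusted p = 0.00502), a comparison that called 0.46% of all genes lower. All its fhod-1(tm2363) libraries lay below the minimum of 1 (0.242 to 0.378). It thus passed through the other groups alone and could be fitted only as lower in fhod-1(tm2363). The gene dod-21 had 0.89 ± 0.25 in fhod-1(tm2363) and 2.69 ± 0.80 in unc-120(st364), against 4.05 ± 1.35 in wild type, with a log2 fold change of -1.38 against wild type (limma adjusted p = 0.00166). Its fhod-1(tm2363) libraries lay on both sides of the minimum, at 0.657 to 1.15. Against unc-120(st364) dod-21 differed by -0.94 (limma adjusted p = 0.0304), which was not called in 7 of the 12 leave-one-out fits and had an adjusted p of up to 0.134 without fhod-1(tm2363) replicate 2. In unc-120(st364) against wild type 0 of the 8 were called in limma, beside 1.2% of all genes, and 2 had an unadjusted p under 0.05. The median of the 8 was -0.13 in fhod-1(tm2363) (6 below 0), where that of all genes was 0.07, and -0.30 in unc-120(st364) (7 below 0), where that of all genes was 0.02. Between fhod-1(tm2363) and unc-120(st364) it was 0.17 (6 above 0), beside 0.06. In fhod-1(tm2363) against wild type 4 of the 8 had an unadjusted p under 0.05, and the uncalled ones lay above 0: dod-24 had a log2 fold change of 0.69 (limma adjusted p = 0.121) and gcy-18 had 0.45 (limma adjusted p = 0.1302).

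**Figure D3:**
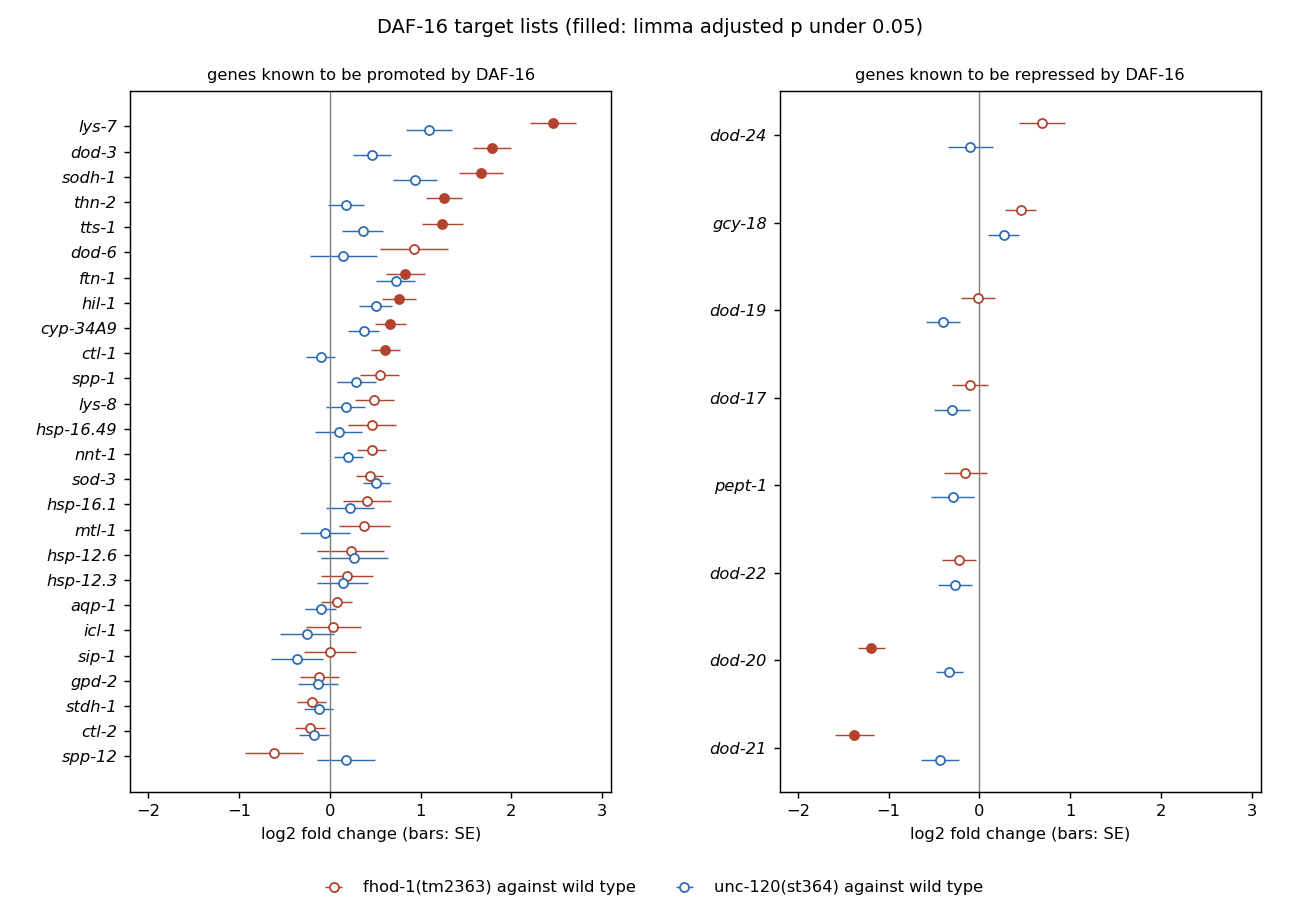
Log2 fold changes against wild type (x axis, bars are SE) of the fitted genes known to be promoted (left panel, 26 genes) or repressed (right panel, 8 genes) by DAF-16, in fhod-1(tm2363) (upper mark of each gene) and unc-120(st364) (lower mark). Filled marks had a limma adjusted p under 0.05: 9 promoted genes to the right of 0 and 2 repressed genes to the left, all in fhod-1(tm2363).

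Lists of cell type markers were read beside these changes. The 12 intestine markers summed to 2439 to 3682 in fhod-1(tm2363) and 1875 to 3001 in unc-120(st364), against 2461 to 4645 in wild type on the TPM scale. The 11 hypodermis markers summed to 1980.2 to 2935 in fhod-1(tm2363) and 2094 to 3786 in unc-120(st364), against 2018 to 4067 in wild type. The 7 body-wall muscle markers summed to 420.02 to 896 in fhod-1(tm2363) and 241 to 558 in unc-120(st364), against 471 to 943 in wild type. The 9 germline markers summed to 44.5 to 64.2 in fhod-1(tm2363) and 40.3 to 87.5 in unc-120(st364), against 55.9 to 95.4 in wild type. The 6 vitellogenin genes, which mark adults, summed to 0.960 to 2.17 in fhod-1(tm2363) and 1.54 to 2.68 in unc-120(st364), against 0.683 to 1.44 in wild type. No marker was listed at 0 in all libraries of a group, and limma called 0 of the markers fitted (12, 11, 7, 8 and 1) in any comparison, with 0 to 4 of a list at an unadjusted p under 0.05. Of all genes 5.23% were called in fhod-1(tm2363) and 1.2% in unc-120(st364) against wild type, and 1.97% between the mutants. Lists this short may hold no called gene at such shares, so nothing is read from the 0. All 8 fitted germline markers lay below 0 in both mutants against wild type, with medians of -0.38 in fhod-1(tm2363) and -0.18 in unc-120(st364) on the log2 scale, and 6 of the 7 muscle markers lay below 0 in unc-120(st364), with a median of -0.54. Of the 12 intestine markers 8 lay below 0 in fhod-1(tm2363) and 9 in unc-120(st364), with medians of -0.15 and -0.28. In unc-120(st364) 4 of them had an unadjusted limma p under 0.05. Of the 11 hypodermis markers 6 lay above 0 in fhod-1(tm2363) and 9 in unc-120(st364), with medians of 0.08 and 0.17. The part of tissue makeup or stage in the values of the pud genes and of the DAF-16 lists was not tested.

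The genes whose pattern was most like that of the pud copies were sought among 5557 genes with a mean of at least 10, by Pearson's r of log2(value + 1) over the 12 libraries, which share group differences and library effects. For the summed pud-1 copies these were F52E1.14 (r = 0.98), scl-2 (0.93), nlp-55 (0.91), nlp-19 (0.90) and ZC204.12 (0.89). For the summed pud-2 copies they were F52E1.14 (r = 0.95), scl-2 (0.93), F55G11.4 (0.92), dod-3 (0.90) and flp-18 (0.88). Of these dod-3 lies on chromosome V as well (2730594 to 2731098), to the right of the pud genes. The part of this position in its values was not tested. The names nlp and flp mark neuropeptide genes, and scl-2 encodes a secreted protein of the SCP family.

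F52E1.14 (WBGene00044696, chromosome V, 8383922 to 8384867) headed both sets and lies far from the pud genes on the same chromosome. It had 174 ± 8.15 in fhod-1(tm2363) and 131 ± 15.5 in unc-120(st364), against 115 ± 15.4 in wild type on the TPM scale, a narrower range than that of the pud copies. With each group's mean removed, its r was 0.95 for the pud-1 sum and 0.88 for the pud-2 sum, in the same 12 libraries by which it had been picked. The gene scl-2 had 30.1 ± 2.56 in fhod-1(tm2363) and 17.3 ± 3.75 in unc-120(st364), against 11.0 ± 3.47 in wild type. Its r with group means removed was 0.65 for the pud-1 sum and 0.62 for the pud-2 sum.

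The deposited table places 12 other genes within 20 kb of the pud cluster, most of them irld genes, which encode proteins with domains like those of insulin and EGF receptors. Only 2 of the 12 were abundant enough to be fitted, and neither was higher than wild type in a mutant. Y19D10B.6, next to pud-1.2 on its left, had 2.08 ± 0.44 in fhod-1(tm2363) and 0.391 ± 0.044 in unc-120(st364), against 3.64 ± 0.68 in wild type (SD, n = 4). It was lower than wild type in both mutants, with log2 fold changes of -0.59 in fhod-1(tm2363) (limma adjusted p = 0.0192) and -1.73 in unc-120(st364) (limma adjusted p = 1.96e-06). The fall in fhod-1(tm2363) was not called in 5 of 12 leave-one-out fits, with a limma adjusted p of up to 0.0814 without fhod-1(tm2363) replicate 2. Between fhod-1(tm2363) and unc-120(st364) it differed by 1.14 (limma adjusted p = 1.36e-04). All its unc-120(st364) libraries lay below the minimum of 1 (0.355 to 0.451). Y19D10B.6 thus passed through the other groups alone and could be fitted only as lower in unc-120(st364). On the right, srbc-15, a pseudogene of the chemoreceptor kind, was listed at 0 in 3 of the 4 libraries of each mutant and at 0.0110 and 0.0102 in replicate 4 of fhod-1(tm2363) and unc-120(st364), against 2.31 to 3.87 in wild type. It passed the minimum through wild type alone, so it could be fitted only as lower in the mutants.

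In the fit of every gene above 0, which called 3.24% of genes in fhod-1(tm2363) and 0.757% in unc-120(st364) against wild type, another 3 of the neighbours were called. The gene irld-53 had 0.127 ± 0.029 in fhod-1(tm2363) and 0.069 ± 0.010 in unc-120(st364), against 0.902 ± 0.128 in wild type (limma adjusted p = 1.24e-05 and 3.55e-06 for the mutants against wild type). The gene irld-32 had 0.181 ± 0.057 in fhod-1(tm2363) and 0.044 ± 0.010 in unc-120(st364), against 0.377 ± 0.071 in wild type (limma adjusted p = 0.0185 and 5.78e-04). The gene irld-30 had 0.443 ± 0.060 in fhod-1(tm2363) and 0.304 ± 0.024 in unc-120(st364), against 0.263 ± 0.063 in wild type, and was called in fhod-1(tm2363) (limma adjusted p = 0.0381). Values this low rest on few reads, and irld-32 overlaps irld-28 on the other strand.

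A wider window of 300 kb on each side was chosen after the values near the cluster had been seen. On the left of its centre 38 genes were fitted. Of these 3 were called in fhod-1(tm2363) against wild type (1 higher, 2 lower), beside 5.23% of all genes. In unc-120(st364) 1 was called, as lower, beside 1.2% of all genes. Nothing is read from these small counts. Y19D10B.6 was the gene nearest the cluster. On the right 23 were fitted, of which 17 were lower than wild type in fhod-1(tm2363) and 17 in unc-120(st364), with 0 higher in either, where 1.37% and 0.678% of all genes were called lower. Of the 17, 5 reached a value of 1 in fewer than 4 of the 8 mutant libraries (srbc-15, F56A4.5, F56A4.12, mct-2 and Y45G12C.4) and so passed the minimum only with the help of wild type, and the other 12 did not need it. The 17 are also not separate measurements, since 10 of them form 5 pairs of genes of equal span, such as clec-209 with F56A4.2, whose reads may have been shared. The right-hand members of these pairs lie in the same order as the left-hand ones, such as Y19D10A.4 at 61.9 kb and C01B4.7 at 170.1 kb. Sharing of reads among the genes of unequal span was not examined. The 17 genes run from srbc-15, 20.4 kb from the centre, to Y45G12C.4, at 221 kb, and gst-10, the next fitted gene at 237 kb, was not called. The C-type lectin gene clec-209 had 8.56 ± 1.55 in fhod-1(tm2363) and 6.29 ± 1.03 in unc-120(st364), against 80.9 ± 11.3 in wild type, and F56A4.2, also named clec-209 in release 115, had 8.07 ± 1.47 in fhod-1(tm2363) and 6.32 ± 0.76 in unc-120(st364), against 81.5 ± 11.6 in wild type. The pud cluster lies just left of this run, and the group means of its 6 genes were above wild type in both mutants. Both comparisons share the wild-type libraries, and the cause of the stretch and its part in the pud values were not tested.

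**Figure D4:**
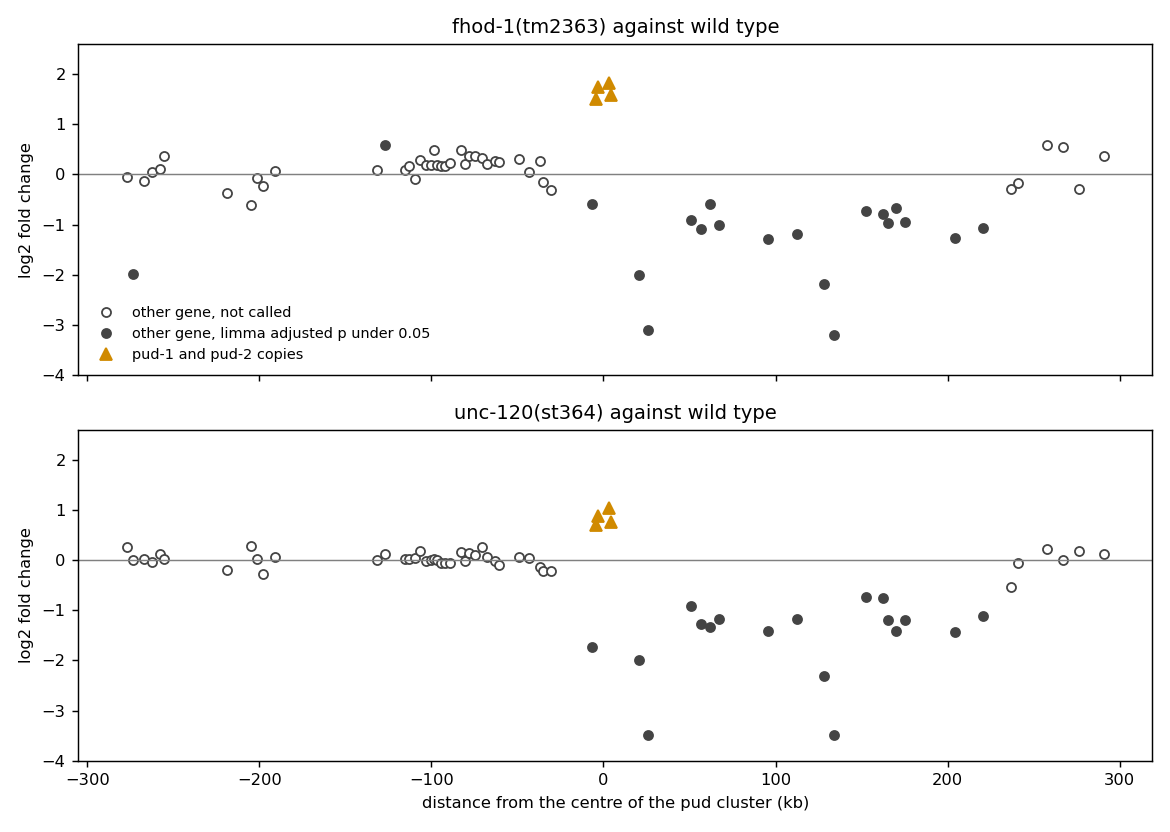
Log2 fold change against wild type (y axis) of fitted genes by their distance in kb from the centre of the pud cluster (x axis), in fhod-1(tm2363) (top) and unc-120(st364) (bottom). Triangles are the pud-1 and pud-2 copies, and filled circles are other genes with a limma adjusted p under 0.05. To the right, 17 of 23 genes are called lower in each mutant, up to 221 kb from the cluster and including 5 pairs of equal span. To the left 3 of 38 are called in the top panel and 1 in the bottom, beside 5.23% and 1.2% of all genes.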

How the data were processed

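Polyadenylated RNA of whole L3 larvae was measured in 12 libraries, 4 per group. The submitters' processing notes name Bowtie2 2.2.5, Partek and the build WBcel235, without their roles. The authors deposited 1 table with a value per gene and library. It is treated as TPM up to a shared constant, since each deposited column summed to 638200. Low values multiplied by exonic length also gathered at whole multiples of a step, with 31.2% to 36.7% within 0.1 of one. A step fixed beforehand would give 20% by chance. Each step was picked to make this share largest, so 20% understates chance here. The steps give only rough estimates of depth, not fit for count tests or counting intervals, so precision rests on the spread between libraries.

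Log2(value + 1) was fitted with limma 3.58.1 (lmFit, eBayes with a trend) in R 4.3.3, over all 12 libraries with 1 mean per group, for genes that reached 1 in 4 or more libraries. Two-sided p-values were Benjamini-Hochberg adjusted over the 12831 genes. Simulated data of 12831 genes for fhod-1(tm2363) against wild type gave back 70% of changes of 1 and 99% of changes of 2 on the log2 scale, with 7 false calls beside 169 true ones in one set of both sizes. The changed genes were drawn only from the more abundant genes, with independent normal noise. Recovery among genes of low value was not simulated. Models and lengths came from Ensembl release 115, which holds 99.5% of the identifiers. Python 3.11.15, pandas 2.3.3, numpy 2.4.6 and matplotlib 3.10.9 were used for the rest.

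The members and lists were chosen with earlier results of these data known. Named genes are the pud genes, their neighbours within 20 kb, the 5 genes most like each summed pair of copies among genes with a mean of at least 10, and up to 5 called genes per list by smallest p. Others, among them daf-2, daf-16, sod-3, mtl-1 and the genes beyond 20 kb, were chosen after their values were seen. Alternatives were a pseudocount of 0.5, a minimum of 10, every gene above 0, upper-quartile scaling, quantile normalization, a loess correction for length (span 0.5, degree 1), a replicate block, a fit of only the groups compared, leaving out each library, and each copy alone. Sequences of the pud genes were not used here.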

Additional observations from a re-analysis of the deposited data

Results flagged for a closer look

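Of 93 combinations of a gene and a group of 4 libraries, 5 had a library whose gap to the nearest other library, divided by the group's range, passed Dixon's critical value. Chance flags about 1 in 20 such groups. For pud-1.1, fhod-1(tm2363) replicate 3 was lowest at 43.9, with the others at 52.1 to 53.5. Among the genes most like the pud copies, F55G11.4 had 15.6 in fhod-1(tm2363) replicate 1, with the others at 12.26 to 12.7, and flp-18 had 15.5 in fhod-1(tm2363) replicate 2, with the others at 12.7 to 13.1. For the neighbour srbc-15, fhod-1(tm2363) replicate 4 had 0.0110 and unc-120(st364) replicate 4 had 0.0102, while the other libraries of both mutants were listed at 0.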

How the results depend on the processing

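All 324 alternative values of the pud-1 and pud-2 copies and their sums kept their sign and lay within 1 SD of the values given. Most of these alternatives left out 1 library, which can move a group mean only little against its SD. The copies also share reads and were chosen on these contrasts, so nothing is read from this count. The number of genes called in limma moved more. In fhod-1(tm2363) against wild type 671 were called (495 higher, 176 lower), 217 with a minimum value of 10 (fewer genes fitted), 2240 after length correction (1096 higher, 1144 lower), 629 after quantile normalization (319 higher, 310 lower), and 224 to 982 when 1 library was left out, lowest without fhod-1(tm2363) replicate 2. In unc-120(st364) against wild type 154 were called, 43 with a minimum of 10, 346 after length correction and 105 to 164 without 1 library. In fhod-1(tm2363) against unc-120(st364) 253 were called (194 higher, 59 lower), 85 with a minimum of 10, 657 after length correction (365 higher, 292 lower), 262 after quantile normalization (168 higher, 94 lower), and 138 to 292 without 1 library. Of the genes promoted by DAF-16, 9 were called in fhod-1(tm2363), 5 with a minimum of 10 and 5 to 10 without 1 library, and in unc-120(st364) 0, 4 after length correction and 0 to 2 without 1 library. The cause of the changes under length correction was not tested.

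The replicate numbers are not stated to pair the libraries, and the correlations were mixed. Same-numbered libraries of different groups correlated in their deviations with r of -0.65 to 0.81, over 0.1 in 5 of 12 pairs. The pairs of replicate 1 had r of 0.58, 0.47 and 0.61, while those of replicate 3 had 0.68, -0.46 and -0.65. With the replicate number as a block, limma called 947, 188 and 311 genes in the comparisons in the same order. Of the pud copies, which had been chosen on these contrasts, it called 4, 3 and 4 of 4. Depth limits pud-4, whose levels rest on few reads. The group means of pud-3 were lower still, but its reads were not estimated.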
